A study of Mus musculus with 27 samples.

Results

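This account covers the wild-type line of mouse embryonic fibroblasts 4 h after 10 Gy of gamma radiation, set against the same line untreated. It rests on the 3 arrays titled wild type at 4 h and the 3 arrays titled wild type untreated, 6 of the 27 arrays of the series, and on the 10976 of 18193 measured genes whose mean over these 6 arrays lay above background. Other groups used for comparison were the same line at 24 h, and a PKBalpha knockout line and a line labelled R, each at 4 h and untreated. PKBalpha is the protein kinase encoded by Akt1. By its label R is the knockout with PKBalpha put back, and its Akt1 readings, given below, go against this. All cells were female, at passage 45, and had been in culture with 10% serum for 24 h before irradiation. Each genotype was 1 line, so the replicates, called biological in the series' design, measure the spread within a line. The time that untreated cells were kept is not given in the sources used here, so irradiation and time in culture cannot be told apart. Groups follow the sample titles, since the descriptions of the irradiated wild-type samples call them untreated.

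Ionising radiation breaks DNA, and the kinases ATM and ATR then stabilise the transcription factor p53, which raises inhibitors of the cell cycle and cell death genes. Checkpoints hold cells before or within S phase and before mitosis, so a culture taken some hours later can also differ in the share of cells in each phase. Fibroblasts are the main makers of extracellular matrix, and their matrix, lysosome and growth factor genes respond to serum, crowding and stress. In RNA from whole cultures, fewer cells of a state and less RNA per cell cannot be told apart.

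The values are intensities of messenger RNA on Affymetrix arrays, where each gene is read by its brightest probe set. Single arrays are given in the order of replicates 0, 1 and 2. Differences are on the log2 scale, 4 h minus untreated, with the standard error of limma's model, and a gene was called at a Benjamini-Hochberg adjusted p below 0.05 over all genes. Cdkn1a, the p53 target that encodes p21, served as a check of the titles and read 1492, 3452 and 1881 at 4 h, against 813, 427 and 599 in untreated cells (1.85 ± 0.39, adjusted p = 0.015). Of the p53 targets checked with it, Mdm2 was higher and not called (1.36 ± 0.53, adjusted p = 0.18). Ccng1 was called (0.82 ± 0.22, adjusted p = 0.045). Akt1 read 4502, 4546 and 3541 at 4 h, against 3308, 2986 and 4465 in untreated cells (0.24 ± 0.87, adjusted p = 0.93), with groups that overlapped. For Akt1 the standard error and p-value rest on the spread within groups over all 27 arrays. These include the low and scattered readings of the other lines, given next, so both values do not measure the wild-type spread. By the same probe set Akt1 read 2.35, 52.7 and 24.9 in untreated cells of the knockout and 41.9, 29.3 and 7.44 in those of R, which goes against the label of R, and R is therefore named by its label throughout. Where this probe set lies relative to the sequence put back is not known here. All 14 fibroblast markers were above background, and of 10 leukocyte, 10 endothelial and 10 epithelial markers 3, 1 and 2 were, none of which was called. The Gapdh and actin control probe sets set apart 5 of the 27 arrays, of which replicate 0 at 4 h and replicate 2 of untreated cells belong to this comparison. Their log2 ratio of 3' to 5' Gapdh signal was -0.187 to 0.16, against -0.466 to -0.298 for the remaining ones. Its part in the results was not tested beyond leaving these arrays out. Results are therefore also given without these 5 arrays, which leaves 2 arrays against 2. In that fit Mdm2 and Ccng1 were both called (adjusted p = 0.0097 and 0.0016).

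At 4 h, 534 of the 10976 genes above background were called (4.87%), 248 higher (2.26%) and 286 lower (2.61%). Over all 18193 genes 592 were called (3.25%), 275 higher (1.51%) and 317 lower (1.74%). The falls were larger than the rises: 106 genes were lower and 48 higher by over 2-fold. Of the 534 genes, 57 belonged to the well-known lists of p53 targets, S phase, homologous recombination, G2/M, and sterol and fatty acid synthesis, and 477 did not, 209 higher and 268 lower. All 3 arrays at 4 h lay beyond all 3 untreated arrays in 3084 genes (28.1%). Without the 5 arrays 325 genes were called (2.96%), and 207 were called in both fits (1.89%), 125 higher and 82 lower. At an unadjusted p under 0.05 there were 2519 genes. A fit to the 6 compared arrays alone called no gene in limma (0 of 10976, with 1452 at an unadjusted p under 0.05), so the calls rest on the spread shared over all 27 arrays. Without replicate 0 at 4 h 164 genes were called. The median difference of all genes above background was -0.01. With equal medians on all arrays it was 0.12, and the calls were then 201 higher and 102 lower.

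**Figure D1:**
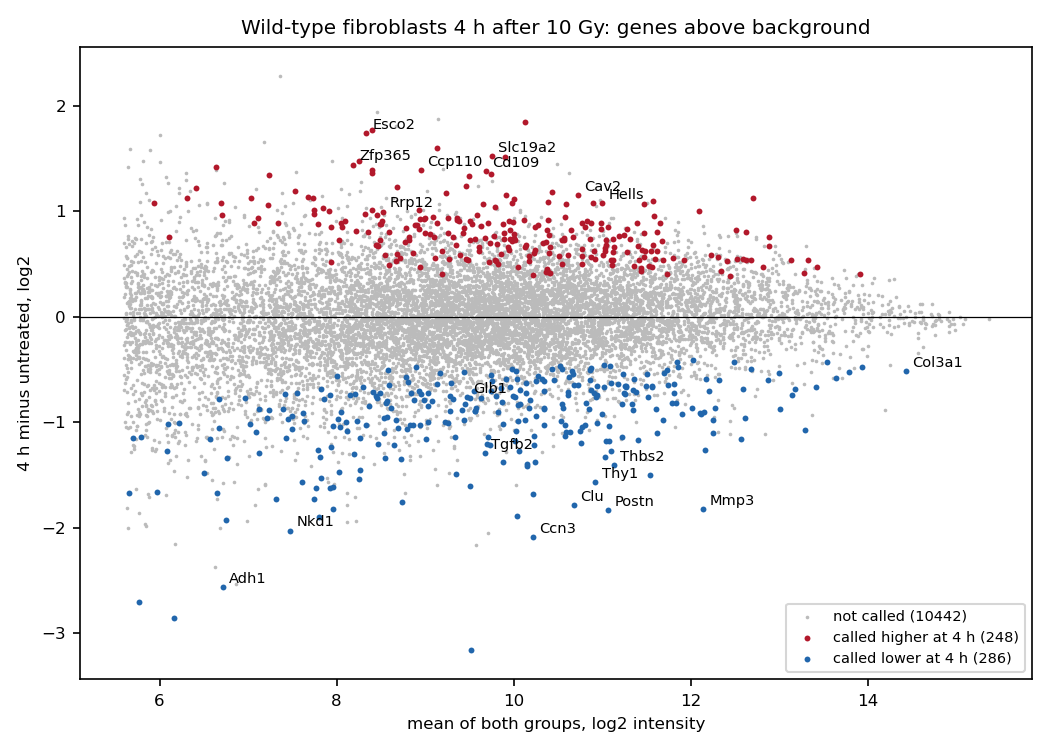
Each point is 1 of the 10976 genes above background in wild-type fibroblasts, with the mean level of both groups (x axis, log2 intensity) and the difference at 4 h against untreated (y axis, log2). Red points are the 248 genes called higher and blue points the 286 called lower, and the blue points reach further from 0 than the red ones at most levels.

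Outside the well-known lists, the largest rises called also without the 5 arrays included genes that handle chromosomes and centrioles. Esco2, the acetyltransferase that ties sister chromatids together during S phase, read 417, 643 and 765 at 4 h, against 176, 239 and 132 in untreated cells (1.74 ± 0.35, adjusted p = 0.012). Lrr1, the substrate receptor of the ubiquitin ligase that unloads the replicative helicase, read 937, 912 and 1109 at 4 h, against 412, 326 and 252 in untreated cells (1.60 ± 0.32, adjusted p = 0.013). In both genes all 4 h arrays lay above all untreated arrays. Hells, a remodelling helicase that acts in DNA methylation, was at 2973 at 4 h against 1413 in untreated cells (1.07 ± 0.22, adjusted p = 0.013), and Wdr76, a chromatin-bound repeat protein, at 303 at 4 h against 138 in untreated cells (1.13 ± 0.29, adjusted p = 0.04). When a gene's probe sets were averaged, Esco2, Lrr1, Hells and Wdr76 kept the sign and lost the call.

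Named genes of the centriole rose, and others of ciliary transport fell. Ccp110, which caps the centriole and holds back cilium growth, read 626, 876 and 946 at 4 h, against 461, 389 and 160.4 in untreated cells (1.39 ± 0.32, adjusted p = 0.022). Plk4, the kinase that starts centriole duplication, read 3683, 3770 and 3525 at 4 h, against 2264, 1965 and 1748 in untreated cells (0.88 ± 0.20, adjusted p = 0.022), and Sass6, the hub of the new centriole's cartwheel, read 669 at 4 h against 455 in untreated cells (0.56 ± 0.12, adjusted p = 0.015). No array at 4 h was within the untreated range for these genes, and replicate 2 of untreated cells was the lowest for Ccp110 and Plk4. Of genes that act in ciliary transport, Kif3a, a motor subunit, fell to 562, 569.8 and 447 at 4 h, against 744, 881 and 1227 in untreated cells (-0.83 ± 0.18, adjusted p = 0.015). Ift20, a carrier subunit, fell by 0.82 and Arl3, a small GTPase that releases cargo in the cilium, by 0.59 on the log2 scale. Of the 32 genes of the cilium and centriole list above background, 5 were called (15.6%, against 4.87% of all genes). Plk4 and Sass6 were higher and Kif3a, Ift20 and Arl3 lower. In the list 12 differences were positive and 20 negative, and the median was -0.21. All 5 were also called without the 5 arrays.

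Other large rises were in genes of varied function. Zfp365, which in human cells is a p53 target that protects genome stability, read 401, 601 and 459 at 4 h, against 184, 208 and 144 in untreated cells (1.44 ± 0.22, adjusted p = 0.0025). Cd109, a lipid-anchored co-receptor of TGF-beta, read 1029, 1942 and 1173 at 4 h, against 539.9, 483 and 509 in untreated cells (1.38 ± 0.19, adjusted p = 0.0015). The thiamine transporter gene Slc19a2 read 906, 1849 and 1860 at 4 h, against 644, 445 and 458 in untreated cells (1.52 ± 0.33, adjusted p = 0.018). For Slc19a2, replicate 0 at 4 h, which is 1 of the 5 arrays, was nearer to the untreated cells than the other two 4 h arrays were. Slc29a1, a nucleoside transporter, was at 2089 at 4 h against 919 in untreated cells (1.18 ± 0.23, adjusted p = 0.009), and Abcb1b, a drug efflux pump, at 907 at 4 h against 403 in untreated cells (1.17 ± 0.28, adjusted p = 0.028). Pidd1, a p53-induced death domain protein, rose by 1.13 and Ddias, a suppressor of damage-induced apoptosis, by 1.12. Piga, the enzyme subunit of the first step of glycolipid anchor synthesis, rose by 1.48, the caveolin gene Cav2 by 1.15 and the potassium channel gene Kcnk2 by 1.34. Zfp850 and Zik1, which encode zinc finger proteins, rose by 1.41 and 1.12, Mfap3l by 1.22, 9230114K14Rik by 1.23 and Chml, an escort protein of Rab GTPases, by 1.07. Of 27 solute carriers Slc19a2 and Slc29a1 were called (7.41%, near the 4.87% of all genes), both higher, and the list's median was -0.01. Of 27 zinc finger genes Zfp365, Zfp367 and Zfp760 were called (11.1%, against 4.87% of all genes), all higher. Averaging the probe sets ended the call for Slc19a2, Piga, Abcb1b, Zik1, Zfp367 and Chml, and for Zfp850, which has 1 probe set and the same difference in both fits. It left a difference of 0.01 for Chml.

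The list of ribosome biogenesis genes and Myc targets had positive differences in nearly all members. Of 39 genes for ribosome biogenesis and Myc targets, 37 had a positive difference, 22 had all 4 h arrays above all untreated arrays (13.8% of genes did) and 6 were called higher, against 2.26% of all genes, and none lower (the median was 0.41). Odc1, the first enzyme of polyamine synthesis, read 10170, 8495 and 6655 at 4 h, against 4676, 4259 and 5473 in untreated cells (0.80 ± 0.15, adjusted p = 0.0071). Cad, which starts pyrimidine synthesis, read 3019, 2876 and 2292 at 4 h, against 1458, 1264 and 1933 in untreated cells (0.83 ± 0.17, adjusted p = 0.015). In both genes every 4 h array lay above every untreated array, with replicate 0 the highest at 4 h. Rrp12, a ribosome assembly factor, was at 521 at 4 h against 262 in untreated cells (1.00 ± 0.24, adjusted p = 0.028), and Rrp9, a protein of the small nucleolar particle, at 999.7 at 4 h against 534 in untreated cells (0.90 ± 0.21, adjusted p = 0.024). Polr1e, a subunit of RNA polymerase I, and Nolc1, a nucleolar chaperone that was added to complete the called members, rose by 0.73 and 0.63. Without the 5 arrays 2 of the 6 were called, Odc1 and Cad, and the list's median was 0.36. Rrp12, Rrp9, Polr1e and Nolc1, the members named here that act in ribosome production, were not called in that fit. Structural ribosomal proteins had a median of -0.0005 over 21 genes and no call.

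Among 33 splicing factors 29 had a positive difference and 2 were called (6.06%, near the 4.87% of all genes), Hnrnpu, a nuclear RNA-binding scaffold (0.41 ± 0.11, adjusted p = 0.044), and Sf3a1, a subunit of the branch site complex (0.40 ± 0.11, adjusted p = 0.045). Hnrnpu read 11860, 11280 and 11370 at 4 h, against 9244, 9037 and 7749 in untreated cells. The median of the list was 0.29, and both calls were lost without the 5 arrays, where 2 others of the list were called. Of 21 heat shock genes only Dnajb1, a co-chaperone of Hsp70, was called (4.76%, near the 4.87% of all genes). Dnajb1 read 3112, 3362 and 3288 at 4 h, against 2267, 2400 and 2427 in untreated cells (0.46 ± 0.09, adjusted p = 0.013). Respiratory chain and proteasome genes gave no call among 30 and 27 genes, with medians of 0.03 and 0.11.

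Outside the homologous recombination list, DNA damage signalling changed in a few genes. Hus1, a part of the clamp that loads at damaged DNA, read 934, 628 and 725 at 4 h, against 356, 477 and 354 in untreated cells (0.94 ± 0.18, adjusted p = 0.0092). Rnf168, the ligase that marks histones around breaks, was at 1008 at 4 h against 706 in untreated cells (0.51 ± 0.12, adjusted p = 0.028), and Topbp1, the activator of ATR, at 3431 at 4 h against 2155 in untreated cells (0.67 ± 0.18, adjusted p = 0.045). These 3 of 27 break sensing and end joining genes were called (11.1%, against 4.87% of all genes), all higher, and the list's median was 0.25. Among them Rnf168 passed without the 5 arrays, and with the mean of its probe sets its difference was -0.03. Of 44 chromatin modifiers 3 rose and 2 fell (11.4% called, against 4.87% of all genes). The maintenance DNA methyltransferase gene Dnmt1 read 3754, 4103 and 3433 at 4 h, against 2676, 2477 and 2565 in untreated cells (0.55 ± 0.09, adjusted p = 0.0049). Eed, a subunit of a Polycomb repressive complex, rose by 0.58, and Hells, given above, was the third rise. Kdm5b, a demethylase of H3 lysine 4, read 824, 620.2 and 639 at 4 h, against 1224, 1327 and 2344 in untreated cells (-1.18 ± 0.27, adjusted p = 0.022), and its relative Kdm5a fell by 0.83. A second Kdm5a probe set read 893 at 4 h against 652 in untreated cells, opposite in sign, and Kdm5a and Eed were not called without the 5 arrays.

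Signalling genes moved in small numbers and in both directions. Of 22 immediate early factors, Klf10, a TGF-beta inducible repressor, rose to 1400, 1319 and 1169 at 4 h, against 835, 759 and 774 in untreated cells (0.71 ± 0.12, adjusted p = 0.0051), and Myc and Ier5 rose by 0.86 and 0.74. With all arrays 13.6% of this list were called, against 4.87% of all genes. Without the 5 arrays Klf10 alone of these was called. In the TGF-beta and BMP list the ligand gene Tgfb2 fell to 490.4, 659.7 and 439 at 4 h, against 1167, 1196 and 1494 in untreated cells (-1.29 ± 0.22, adjusted p = 0.0048). Tgfbi, a matrix protein that TGF-beta induces, fell to 1025, 557 and 746 at 4 h, against 1494, 2238 and 2237 in untreated cells (-1.38 ± 0.20, adjusted p = 0.0016), and Smurf2, a ligase that limits TGF-beta receptors, rose by 0.48. All 4 probe sets of Tgfb2 and all 4 of Tgfbi were lower. These 3 were the calls among 27 genes (11.1%, against 4.87% of all genes). Smurf2 was lost without the 5 arrays, and the list's median was 0.06. Of 23 growth factor receptors 13% were called, against 4.87% of all genes. Tgfbr1 rose by 0.63, and Egfr and Fgfr1 fell by 0.50 and 0.47, none of which was called without the 5 arrays. The 17 ERK feedback genes and 19 growth factor ligands had no call, and Dusp6, a phosphatase of ERK, read 1266, 1004 and 1125 at 4 h, against 875, 569 and 584 in untreated cells (0.77 ± 0.28, adjusted p = 0.15).

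Of 25 Wnt genes 2 were called (8%, against 4.87% of all genes), both lower. Nkd1, a feedback inhibitor of Wnt signalling that is itself a Wnt target, fell to 80.3, 84.3 and 101 at 4 h, against 449.8, 319 and 322 in untreated cells (-2.03 ± 0.31, adjusted p = 0.0025). Its highest 4 h array was far below its lowest untreated array. The mean of its 4 probe sets kept the sign and lost the call. Fzd2, a Wnt receptor gene, fell by 0.54 and was not called without the 5 arrays. Axin2, another feedback target of Wnt, read 113, 74.4 and 132 at 4 h, against 327, 231 and 117 in untreated cells (adjusted p = 0.16), with groups that overlapped. Amer1, which in human cells scaffolds the complex that degrades beta-catenin, was at 389.7 at 4 h against 1093 in untreated cells (-1.49 ± 0.27, adjusted p = 0.007).

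**Figure D2:**
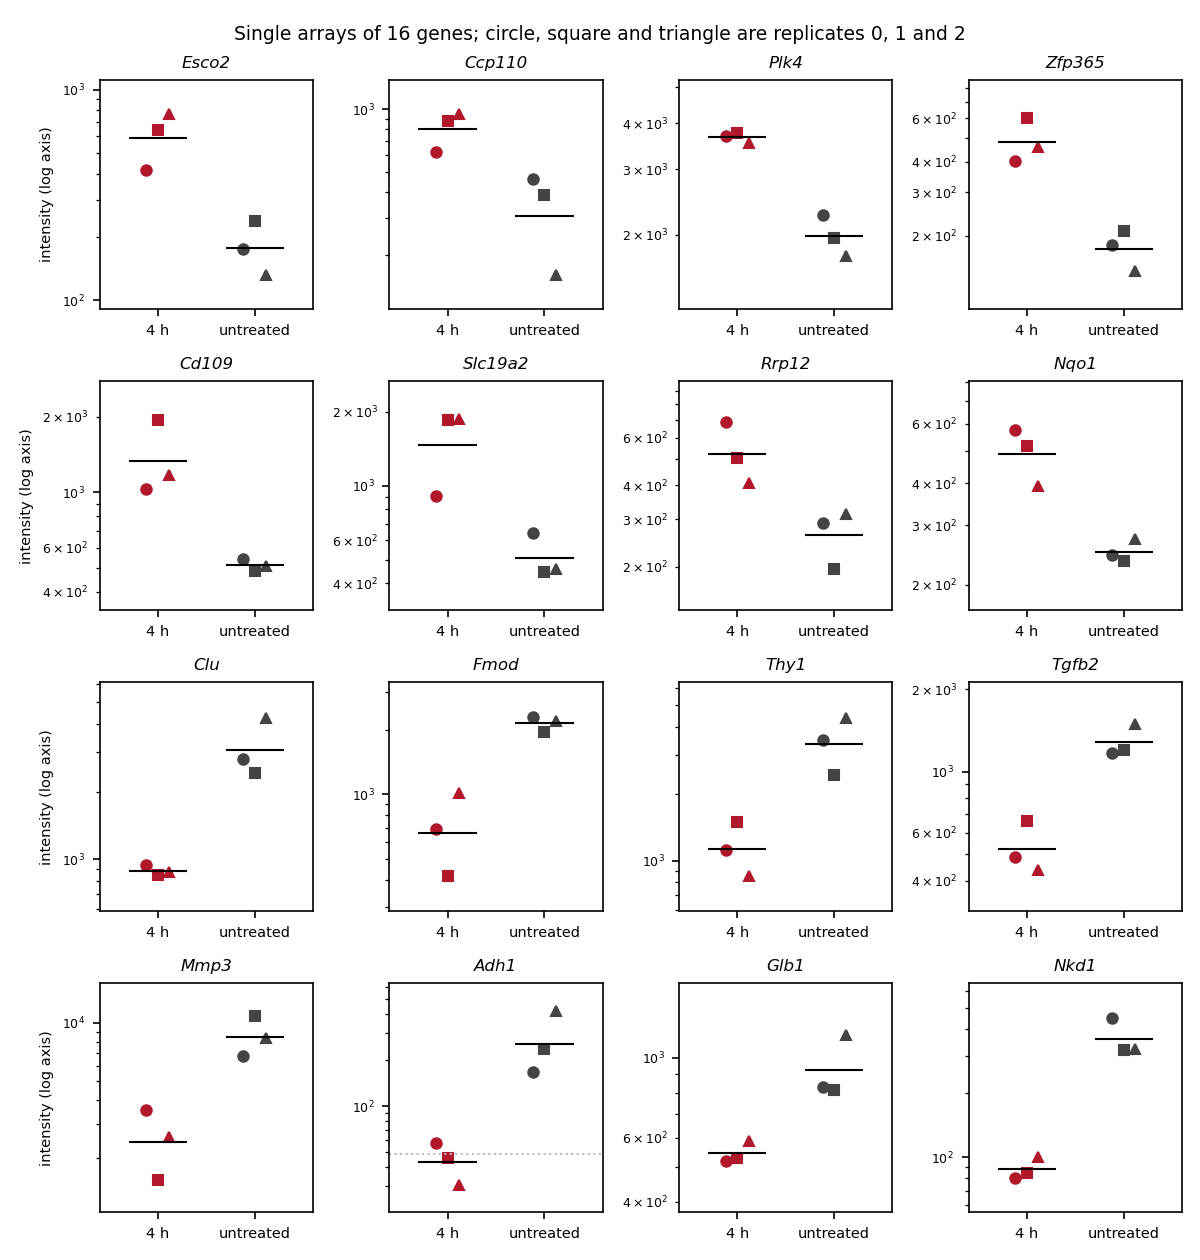
Intensity (log axis) on each array of 16 genes in wild-type fibroblasts, at 4 h on the left in red and untreated on the right in grey, with the geometric mean as a line. The dotted line is the background level of 48.3, seen only for Adh1, and in all 16 genes the arrays of the groups do not overlap.

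The larger falls outside the lipid genes included many in the extracellular matrix and in what fibroblasts secrete. Postn, a matricellular protein that binds collagen and integrins, read 1553, 1308 and 732 at 4 h, against 5071, 2353 and 5619 in untreated cells (-1.83 ± 0.27, adjusted p = 0.0022). Thbs2, another matricellular protein, read 2030, 1081 and 1197 at 4 h, against 3377, 4985 and 2919 in untreated cells (-1.41 ± 0.22, adjusted p = 0.0033). Fmod, a proteoglycan that shapes collagen fibrils, read 691, 416 and 1020 at 4 h, against 2287, 1945 and 2192 in untreated cells (-1.68 ± 0.42, adjusted p = 0.031). Every 4 h array was below every untreated array in these 3 genes. The proteoglycan genes Dcn and Ogn fell by 1.08 and 1.26 and were not called without the 5 arrays, and Omd, of the same family, by 1.57. Of 29 matrix glycoproteins and proteoglycans 5 were called (17.2%, against 4.87% of all genes), all lower. All 4 h arrays lay below all untreated arrays in 12 (14.3% of genes did), and the median was -0.29.

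Among the collagens, Col3a1 read 19820, 17600 and 18160 at 4 h, against 27430, 26190 and 25840 in untreated cells (-0.52 ± 0.11, adjusted p = 0.016), and Col6a3 was at 962 at 4 h against 1755 in untreated cells (-0.87 ± 0.22, adjusted p = 0.034). These 2 of 20 collagen genes were called (10%, against 4.87% of all genes), the median was -0.27, and both were also called without the 5 arrays. The matrix protease gene Mmp3 read 3553, 1533 and 2551 at 4 h, against 6709, 10890 and 8383 in untreated cells (-1.82 ± 0.31, adjusted p = 0.0048), and Mmp14, a membrane-bound protease, was at 3060 at 4 h against 5588 in untreated cells (-0.87 ± 0.23, adjusted p = 0.044). Among 28 proteases and crosslinking enzymes these 2 were called (7.14%, near the 4.87% of all genes), both also without the 5 arrays. Thy1, a surface glycoprotein that marks fibroblasts, read 1124, 1490 and 858 at 4 h, against 3504, 2438 and 4397 in untreated cells (-1.57 ± 0.24, adjusted p = 0.0025). Pcdh18 and Itga6, which are adhesion genes on the same list of 21 as Thy1, rose by 0.93 and 0.79. Neither was called without the 5 arrays. With all arrays 14.3% of that list were called, against 4.87% of all genes. The secreted signalling protein Ccn3 read 466, 507 and 817 at 4 h, against 3892, 2522 and 1510 in untreated cells (-2.09 ± 0.43, adjusted p = 0.013), Islr, a secreted leucine-rich protein of mesenchymal cells, 416 at 4 h against 1267 in untreated cells (-1.61 ± 0.25, adjusted p = 0.0031), and Gas6, the ligand of the receptor Axl, 702 at 4 h against 1850 in untreated cells (-1.40 ± 0.28, adjusted p = 0.011). Of the 14 fibroblast markers 4 fell (28.6%, against 4.87% of all genes called), a list that shares genes with these, with a median of -0.37.

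Complement and acute phase genes had the lowest median of the 41 lists, -1.03 over 10 genes. All had a negative difference and 4 were called (40%, against 4.87% of all genes). Clu, an extracellular chaperone that limits the terminal complex, read 938, 847 and 878 at 4 h, against 2788, 2413 and 4244 in untreated cells (-1.79 ± 0.26, adjusted p = 0.0016), and all 4 of its probe sets were lower. Serping1, the inhibitor of C1, read 1138, 999.9 and 2033 at 4 h, against 3578, 3670 and 2807 in untreated cells (-1.33 ± 0.28, adjusted p = 0.014). The C1 protease genes C1s1 and C1ra were at 4507 at 4 h against 8751 in untreated cells (-0.96 ± 0.21, adjusted p = 0.017) and 1056 at 4 h against 2257 in untreated cells (-1.10 ± 0.29, adjusted p = 0.045). Without the 5 arrays Clu and C1s1 were called. The acute phase gene Lcn2, which encodes an iron-scavenging lipocalin, had the largest difference of the list and did not pass, at 899.6, 313 and 165 at 4 h, against 608, 2269 and 3072 in untreated cells (-2.17 ± 0.64, adjusted p = 0.067), with groups that overlapped.

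**Figure D3:**
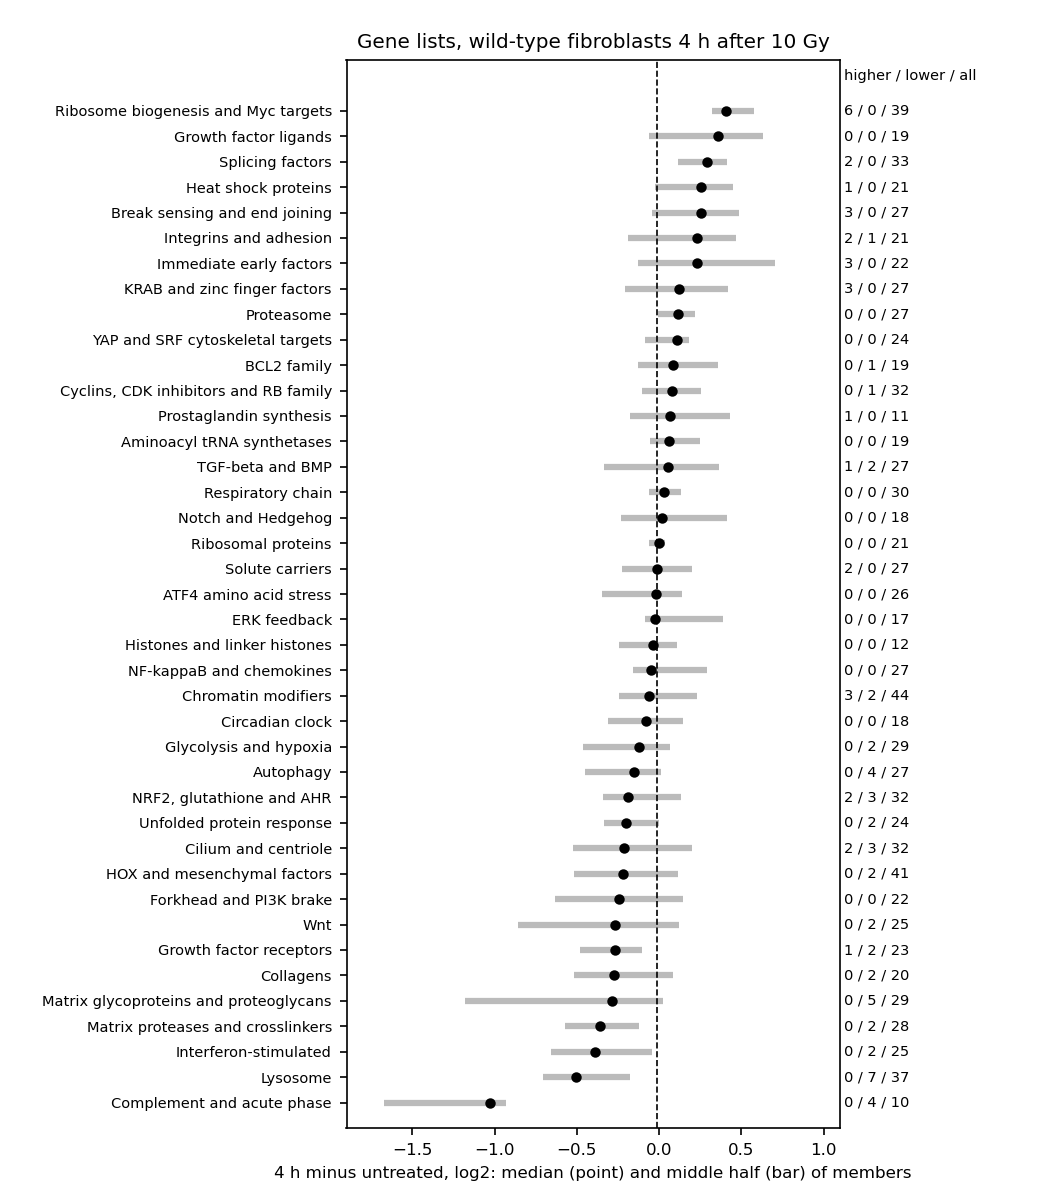
Median (point) and middle range from the lower to the upper quartile (bar) of the log2 difference, 4 h minus untreated, for the members above background of the gene lists described, with the numbers called higher, called lower and, as all, above background on the right. The dashed line is the median of all genes above background, -0.01. The lists run from 0.41 for ribosome biogenesis and Myc targets to -1.03 for complement and acute phase.

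Lysosome genes were lower across most of the list. Of 37 genes 33 had a negative difference, 19 had all 4 h arrays below all untreated arrays (against 14.3% of all genes), 7 were called lower (against 2.61% of all genes) and none higher, and the median was -0.51. The called genes were the acid sphingomyelinase Smpd1, the sialidase Neu1, the beta-galactosidase Glb1, the peptidase Tpp1, the acid lipase Lipa, the protective protein Ctsa and the sphingolipid activator Psap. Ctsa and Psap were added to complete the called members. Glb1 read 518, 528 and 588 at 4 h, against 829.8, 817 and 1158 in untreated cells (-0.76 ± 0.17, adjusted p = 0.017). Tpp1 read 2116, 2888 and 3063 at 4 h, against 4774, 3801 and 5694 in untreated cells (-0.82 ± 0.20, adjusted p = 0.032). Ctsa read 2486, 3499 and 3812 at 4 h, against 6489, 4908 and 7135 in untreated cells (-0.93 ± 0.24, adjusted p = 0.038). In all these genes the groups did not overlap, and for Tpp1 and Ctsa replicate 0 was the lowest 4 h array. Without the 5 arrays 3 lysosome genes were called, among them Glb1 and Lipa, and the median was -0.38. When probe sets were averaged, Glb1 kept the call, and Neu1, Tpp1 and Lipa lost it. Smpd1 lost it too, with a difference of -0.11 (adjusted p = 0.82), and its second probe set above background rose by 0.44.

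Many lysosome genes carry a palindromic site for the transcription factors TFEB and TFE3 near their start. The word TCACGTGA, searched on both strands over 250 bases before to 50 after the start (RefSeq, GRCm38.p6), stood in 5 of the 31 lysosome promoters that could be matched (16.1%), against 2.31% of promoters of genes above background and 1.12% of all promoters. Its core CACGTG, which the longer word contains, stood in 12 of 31 (38.7%), against 11.9% of genes above background. Promoters of 3 such genes are shown because they carry the word, in capitals, at different distances from the start: Ctsa (chr2:164833523-164833822, plus strand), Gla (chrX:134600956-134601255, minus strand), which encodes alpha-galactosidase, and Ctsd (chr7:142387778-142388077, minus strand), which encodes cathepsin D.
Ctsa: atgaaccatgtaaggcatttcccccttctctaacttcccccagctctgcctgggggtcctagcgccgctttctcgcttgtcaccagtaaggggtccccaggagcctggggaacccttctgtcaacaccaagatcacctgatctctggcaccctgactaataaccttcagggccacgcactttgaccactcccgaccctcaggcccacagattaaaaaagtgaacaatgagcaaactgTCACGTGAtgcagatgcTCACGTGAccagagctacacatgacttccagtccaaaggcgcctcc
Gla: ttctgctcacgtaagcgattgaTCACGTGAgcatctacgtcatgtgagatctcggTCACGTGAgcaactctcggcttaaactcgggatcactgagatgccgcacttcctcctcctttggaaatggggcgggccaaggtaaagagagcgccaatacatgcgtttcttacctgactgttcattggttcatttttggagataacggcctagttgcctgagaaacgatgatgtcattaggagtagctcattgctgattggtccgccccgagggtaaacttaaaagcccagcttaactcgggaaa
Ctsd: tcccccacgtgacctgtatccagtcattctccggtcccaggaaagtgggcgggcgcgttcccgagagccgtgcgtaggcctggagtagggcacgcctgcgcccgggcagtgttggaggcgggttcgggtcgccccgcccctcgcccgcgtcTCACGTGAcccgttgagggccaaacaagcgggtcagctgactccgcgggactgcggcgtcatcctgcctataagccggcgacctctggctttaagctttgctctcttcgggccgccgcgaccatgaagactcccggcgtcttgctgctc
Gla read 519, 576 and 705 at 4 h, against 967, 1015 and 717 in untreated cells (-0.58 ± 0.17, adjusted p = 0.067) and Ctsd 2383, 3490 and 3379 at 4 h, against 4584, 3875 and 6673 in untreated cells (-0.69 ± 0.27, adjusted p = 0.18), so neither passed, although the groups did not overlap in either. The 12 lysosome genes with CACGTG had a median difference of -0.57 and the 19 without it -0.49. Of the 12 genes 2 were called, and of the 19 genes 5. Gla and Ctsd were chosen for their promoters after their values were seen.

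Related genes of degradation and secretion were also lower in part. Map1lc3b, which coats autophagosomes, read 4775, 6714 and 7041 at 4 h, against 10050, 9903 and 7916 in untreated cells (-0.60 ± 0.13, adjusted p = 0.017), its relative Gabarap fell by 0.54, the conjugating enzyme Atg7 by 0.65 and the mitophagy receptor Bnip3 by 0.87. These were the 4 calls among 27 autophagy genes (14.8%, against 4.87% of all genes, with a median of -0.15). Map1lc3b was called without the 5 arrays too. Of 24 genes of the unfolded protein response 2 fell (8.33%, against 4.87% of all genes). They were the disulfide isomerase Pdia6 (-0.60 ± 0.11, adjusted p = 0.0064) and the co-chaperone Dnajc3 (-0.74 ± 0.16, adjusted p = 0.018). Pdia6 read 3873, 4019 and 4582 at 4 h, against 6478, 6101 and 6252 in untreated cells, and both kept the call without the 5 arrays. The other 4 probe sets of Dnajc3, all above background, had differences from -0.04 to 0.30, and the average of its sets gave -0.09. None of 26 ATF4 target genes was called.

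Several enzymes of detoxification and small-molecule metabolism were lower. Adh1, an alcohol dehydrogenase, read 57.7, 45.7 and 30.6 at 4 h, against 167, 238 and 418 in untreated cells (-2.56 ± 0.39, adjusted p = 0.0025). At 4 h, 1 of its 3 arrays was above the background level of 48.3, so the size of its difference is not well measured. Aoc3, an amine oxidase, was at 55.2 at 4 h against 209 in untreated cells (-1.92 ± 0.44, adjusted p = 0.022), with 2 of its 4 h arrays below background. Gda, the guanine deaminase, was at 132 at 4 h against 467 in untreated cells (-1.83 ± 0.36, adjusted p = 0.011), and Cdo1, the cysteine dioxygenase, at 87.7 at 4 h against 291 in untreated cells (-1.73 ± 0.30, adjusted p = 0.0052). In the list of NRF2, glutathione and AHR genes 2 of 32 rose and 3 fell (15.6% called, against 4.87% of all genes). Nqo1, a quinone reductase and a classic NRF2 target, read 576, 516 and 393 at 4 h, against 245, 235 and 274 in untreated cells (0.96 ± 0.20, adjusted p = 0.015), and the thioredoxin reductase Txnrd1 rose by 0.55. The glutathione transferase genes Gstm1, Gstm2 and Gstt1 fell by 1.02, 0.74 and 1.15, and probes for such closely related genes can share signal. None of these 5 was called without the 5 arrays. Of 29 glycolysis and hypoxia genes 2 fell, the phosphofructokinase gene Pfkp by 0.50 and Bnip3, which was also the single call among 19 genes of the BCL2 family. These shares, 6.9% and 5.26%, were near the 4.87% of all genes.

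Regulators of cell identity and of interferon signalling gave few calls. Ebf3, a transcription factor of mesenchymal cells, read 159, 162 and 157 at 4 h, against 388, 341 and 398 in untreated cells (-1.24 ± 0.16, adjusted p = 0.0014), and Snai2, a repressor of epithelial genes, fell by 0.41. These 2 of 41 HOX and mesenchymal factors were called (4.88%, near the 4.87% of all genes), Snai2 was lost without the 5 arrays, and the median was -0.22. Irx3, an Iroquois homeobox gene, was at 233 at 4 h against 784 in untreated cells (-1.75 ± 0.35, adjusted p = 0.012). Of 25 interferon-stimulated genes 8% were called, against 4.87% of all genes. Parp14 fell by 1.02 and Ifi27, a mitochondrial protein induced by interferon, by 0.66. In this list 20 had a negative difference and the median was -0.39. Parp14 read 42.2, 68 and 38.4 at 4 h, against 83.4, 92.2 and 119 in untreated cells, so that 2 of its 4 h arrays were below background, and it was not called without the 5 arrays. Ankrd12, a cofactor of nuclear receptor coactivators, was at 584 at 4 h against 1522 in untreated cells (-1.38 ± 0.32, adjusted p = 0.022). The prostaglandin E2 receptor gene Ptger4 rose to 983, 892 and 906 at 4 h, against 467, 531 and 564 in untreated cells (0.84 ± 0.21, adjusted p = 0.032). Among cell cycle regulators outside the S phase list, Cdkn2b, an inhibitor of Cdk4 and Cdk6, fell by 0.60 while its groups overlapped at 1 array, and the call was lost without the 5 arrays.

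No gene was called in the lists for NF-kappaB and chemokines (27 genes), Forkhead factors and brakes of PI3K (22), the circadian clock (18), histones (12), tRNA synthetases (19), YAP and SRF targets (24), or Notch and Hedgehog (18). Their medians lay between -0.24 and 0.11. In all, 81 of the 1028 genes above background on the 41 lists were called, where 4.87% of all genes above background were. Outside these lists, the well-known lists and the marker lists stood 396 called genes.

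Some genes crossed the background level. In 60 of the 18193 genes every array of a group was above it and every array of the other was below. Of these genes 23 were above at 4 h and 37 above in untreated cells, and 2 and 7 were called. Among all 18193 genes 3.25% were called, and the rule that picked the 60 already sets their groups apart. Iglon5, a cell adhesion molecule of the immunoglobulin class, read 31.3, 12.8 and 24.1 at 4 h, against 141, 124 and 154 in untreated cells, so untreated cells were at least 2.88-fold higher (adjusted p = 0.0051). Angpt4, a ligand of the receptor Tie2, was at least 2.38-fold higher in untreated cells, Scara5, a ferritin receptor, at least 2.16-fold and Cygb, which encodes cytoglobin, at least 2.04-fold. For these bounds the arrays below background were set to the background level. Without the 5 arrays, of these 4 Iglon5 alone was called. In the other direction, Mrc1, the mannose receptor, read 86.5, 51.2 and 64.7 at 4 h, against 46.6, 20.5 and 23.7 in untreated cells and was at least 1.37-fold higher at 4 h (adjusted p = 0.033), a call also lost without them.

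Short words bound by known factors were counted in the promoters of genes called higher outside the well-known lists. E2F factors bind words such as TTTCCCGC, and the MuvB complex binds the element TTTGAA. On both strands, TTTCCCGC, TTTGGCGC, TTTCGCGC or TTTGCCGC stood in 15 of 179 of these promoters (8.38%), in 2.24% of promoters of genes called lower outside the lists and in 4.97% of those of all genes above background. TTTGAA or TTCGAA stood in 55 of 179 (30.7%), 19.3% and 16.1%. The word CCAAT, bound by NF-Y, stood in 46.4%, 44.8% and 43.3%, and the ETS word CCGGAAGT in 14.5%, 4.93% and 9.62%. These shares are descriptions, without a test. Promoters of 3 genes that rose in both fits and carry both kinds of word, in capitals and read on either strand, show how they lie: Ncapg2 (chr12:116405186-116405485, plus strand), a condensin II subunit, Mis18a (chr16:90727322-90727621, minus strand), which licenses centromere assembly, and Zfp760 (chr17:21707491-21707790, plus strand), a zinc finger gene.
Ncapg2: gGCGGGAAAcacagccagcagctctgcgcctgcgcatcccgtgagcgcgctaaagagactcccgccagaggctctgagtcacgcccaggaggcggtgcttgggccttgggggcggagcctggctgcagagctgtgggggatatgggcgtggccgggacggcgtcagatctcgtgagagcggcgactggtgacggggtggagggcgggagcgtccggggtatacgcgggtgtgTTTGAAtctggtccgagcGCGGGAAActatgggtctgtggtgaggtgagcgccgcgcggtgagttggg
Mis18a: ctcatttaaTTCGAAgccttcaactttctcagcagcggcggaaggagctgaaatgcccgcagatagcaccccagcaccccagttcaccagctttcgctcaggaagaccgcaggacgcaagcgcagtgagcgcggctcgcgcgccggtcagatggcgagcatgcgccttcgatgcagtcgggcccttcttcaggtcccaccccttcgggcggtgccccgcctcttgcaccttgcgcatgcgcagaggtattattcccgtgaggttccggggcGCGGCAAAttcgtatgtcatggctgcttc
Zfp760: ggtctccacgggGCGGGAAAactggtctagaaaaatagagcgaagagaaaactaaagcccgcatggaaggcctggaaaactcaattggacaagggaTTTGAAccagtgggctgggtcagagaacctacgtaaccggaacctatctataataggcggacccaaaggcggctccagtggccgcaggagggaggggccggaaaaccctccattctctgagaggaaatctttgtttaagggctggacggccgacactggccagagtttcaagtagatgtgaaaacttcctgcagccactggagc
Ncapg2 read 2190, 2092 and 2411 at 4 h, against 1344, 1154 and 781 in untreated cells (1.06 ± 0.24, adjusted p = 0.022). Mis18a was at 1353 at 4 h against 723 in untreated cells (0.90 ± 0.21, adjusted p = 0.026) and Zfp760 at 557 at 4 h against 341 in untreated cells (0.71 ± 0.16, adjusted p = 0.024). These genes were chosen for their promoters after their values were seen.

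At 24 h the median of ribosome biogenesis and Myc targets against untreated cells was -0.02. It was -0.05 for lysosome and -0.18 for complement and acute phase genes. Some other lists kept their median or lay further from 0. HOX and mesenchymal factors had -0.20 at 24 h and -0.22 at 4 h, and growth factor ligands 0.40 and 0.36. Immediate early factors had 0.38 at 24 h and 0.23 at 4 h, and ATF4 targets 0.30 and -0.02. A direct test of 24 h against 4 h called 437 genes above background (3.98%), 172 higher and 265 lower at 24 h, while 24 h against untreated called 5 (0.0456%). Both tests use the same arrays at 24 h, so their values stand side by side. The test of 24 h against 4 h also shares its 4 h arrays with 4 h against untreated. For genes chosen by their difference at 4 h, part of a move back at 24 h is therefore built in. Adh1, with 186, 207 and 219 at 24 h, was higher than at 4 h (2.23 ± 0.39, adjusted p = 0.0071), and Islr, with 1599, 949 and 1044, too (1.49 ± 0.25, adjusted p = 0.0058). Of the 39 ribosome biogenesis and Myc target genes 7 were called. Odc1 (-0.74 ± 0.15, adjusted p = 0.012) and Cad (-0.90 ± 0.17, adjusted p = 0.01) were among them, both lower at 24 h. Of the 37 lysosome genes 6 were called, among them Neu1 (0.83 ± 0.18, adjusted p = 0.02) and Tpp1 (0.80 ± 0.20, adjusted p = 0.04), both higher. Serping1 was higher at 24 h (1.45 ± 0.28, adjusted p = 0.0095), and so was C1s1 (1.02 ± 0.21, adjusted p = 0.014). The ATF4 targets Ddit3 (1.02 ± 0.21, adjusted p = 0.013) and Trib3 (1.30 ± 0.26, adjusted p = 0.012) were higher at 24 h than at 4 h, 2 of the 4 genes called among the 26 of that list. Genes of cycling cells were among the smallest p values of the lower group, with Ccnf, which encodes cyclin F (-1.24 ± 0.15, adjusted p = 0.00043), and the repressor genes E2f7 (-1.01 ± 0.11, adjusted p = 0.00043) and E2f8 (-1.55 ± 0.19, adjusted p = 0.00054). Not every gene differed between the times. Ebf3 read 194, 196 and 139 at 24 h (0.13 ± 0.16, adjusted p = 0.8), and Cav2 was at 2191 (-0.21 ± 0.30, adjusted p = 0.83).

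**Figure D4:**
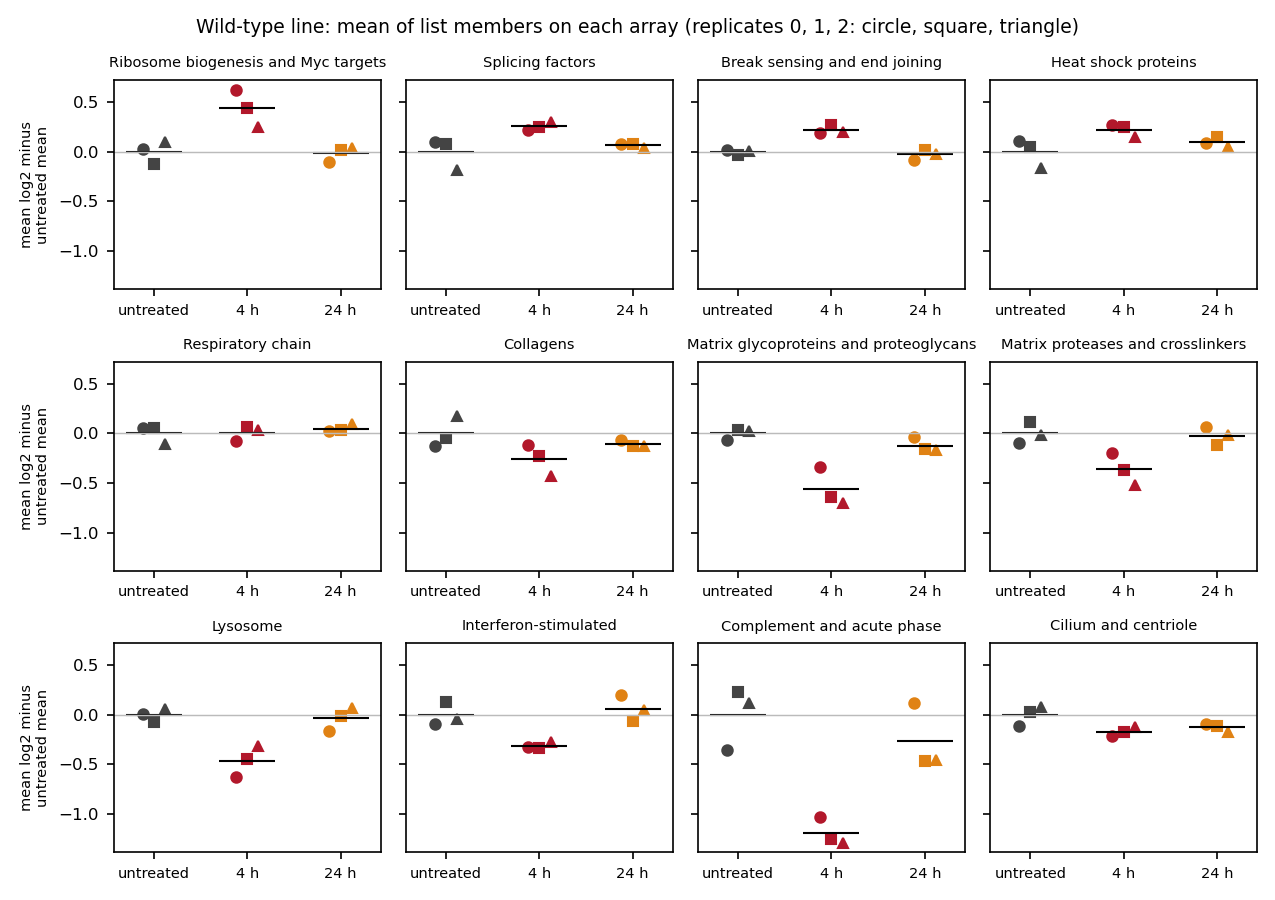
Mean of the members above background of 12 gene lists on each wild-type array, as log2 minus the mean of the 3 untreated arrays, for untreated cells, 4 h and 24 h. All 4 h arrays lie above the untreated ones for ribosome biogenesis and Myc targets. They lie below the untreated ones for lysosome, complement and acute phase, and interferon-stimulated genes. The 24 h arrays of these lists lie nearer to 0.

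The response at 4 h was also measured in both other lines, the PKBalpha knockout and R, against their own untreated cells. At 4 h the knockout had 64 genes called (0.583%) and R 171 (1.56%). Of the 534 wild-type genes 502 (94%) had the same sign in the knockout and 498 (93.3%) in R, where all genes above background gave 74.2% and 74%. Their median size in the wild-type direction was 0.82 in wild-type cells, 0.40 in the knockout and 0.45 in R. These genes were chosen by their wild-type values, so that order is a description. The test of the difference between responses called 0 genes against the knockout (0%; limma, with 547 at an unadjusted p under 0.05) and 1 against R (0.00911%; 616). Across all 18193 genes it called 2 and 3.

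Among the smallest p values of these differences, Zfp365 had a response of 1.44 in wild-type cells, -0.03 in the knockout and 0.09 in R, and the difference to the knockout did not pass (1.48 ± 0.31, adjusted p = 0.2). Cd109 had 1.38, 0.08 and 0.34 (1.30 ± 0.28, adjusted p = 0.2). Ebf3 had -1.24, 0.08 and 0.12, with a difference to R that missed the threshold (-1.36 ± 0.23, adjusted p = 0.053). Inka1, an inhibitor of the kinase Pak4, had 0.57, -0.55 and -0.68, and neither difference passed (1.25 ± 0.22, adjusted p = 0.067). Matrix genes such as Postn, with -1.83, -0.32 and -0.36, and Thbs2, with -1.41, -0.12 and -0.19, did not pass either test of the difference. Nkd1 had -2.03, 0.20 and 1.02, and its difference to R was the 1 called (-3.04 ± 0.44, adjusted p = 0.012). In R its 6 arrays were all below background, with 42.3, 47.1 and 40.1 at 4 h against 31.4, 22.2 and 13.9 in untreated cells, so neither its response there nor the size of that difference is a measured level. Esco2, Mfap3l, Hells, Tgfbi and Islr had responses of the same sign in all 3 lines, of which the smallest was the 0.80 of Hells in R.

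**Figure D5:**
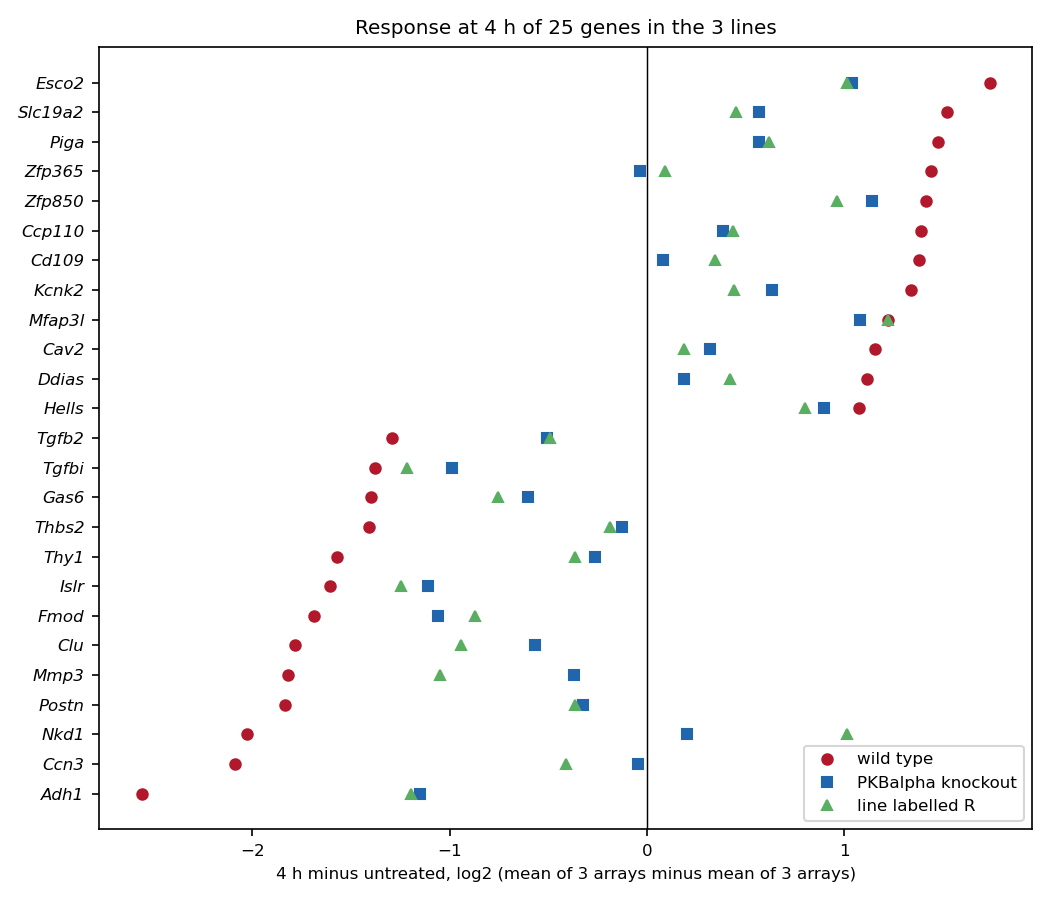
Response at 4 h (log2, mean of 3 arrays minus mean of 3 untreated arrays) of 25 genes named for the wild-type line, in wild-type cells (red circles), the PKBalpha knockout (blue squares) and the line labelled R (green triangles). The wild-type points lie furthest from 0 in all 25 genes, which were chosen by their wild-type values, and Nkd1 is on the other side of 0 in both other lines, where its levels were near or below background.

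Other probe sets of the called genes gave a check on the choice of the brightest one. For 282 called genes a further probe set was above background, 498 in all, of which 436 (87.6%) had the same sign as the one used. In 235 of the 282 genes all further probe sets did. When the probe sets were averaged, 203 of the 534 genes were called. Genes given above whose call was lost by this included Cad, Dnajb1, Dnmt1, Kdm5b, Hus1, Plk4, Sass6, Kif3a, Amer1, Fmod, Gas6, Mmp14, Map1lc3b, Pdia6, Gda, Ptger4 and Iglon5.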

How the data were processed

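RNA of 27 cultures was measured on Affymetrix mouse arrays of 45101 probe sets. The authors deposited linear intensity values with the same trimmed mean, 500.003, on every array; RMA and GCRMA appear in the submitters' processing notes without a role, so how probes were summarised is not given in the sources used here. From these deposited intensities log2 was taken, and each of 18193 genes was read by its brightest probe set, among the 34945 with 1 gene symbol. limma 3.58.1 in R 4.3.3 fitted 9 group means with no block (18 residual degrees of freedom), with two-sided p-values adjusted by Benjamini-Hochberg over all genes. Background, an intensity of 48.3, was the highest value of 9 probe sets of Y-linked genes in these female cells. The number of arrays limits the precision, and an exact permutation test of 3 against 3 cannot go below 0.1. Arrays were set apart where both control ratios passed the median by 4 median absolute deviations.

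The genes named were the 20 largest rises and falls called in both fits outside the well-known lists, up to 5 members of smallest p per list, p53 and Akt checks, the 5 smallest p of each direction of the other tests, and up to 8 genes crossing background. Genes outside this rule are marked where they appear. Members and lists were chosen with earlier results of these data known. Of 1500 list entries 1392 were matched. Among the lists, 1 is not reported here. The fit was also run on simulated data, and the outcome is not given here. The alternatives were the replicate block, the compared arrays alone, an intensity trend, array weights, quantile normalization, equal medians, an offset of 50, the mean of probe sets, only genes above background, without the 5 arrays, and without each replicate.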

Additional observations from a re-analysis of the deposited data

Results flagged for a closer look

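Nkd1 was called in the test of the difference between lines. The response at 4 h in the wild-type line minus that in the line labelled R was -3.04 on the log2 scale (limma, adjusted p = 0.012). All 6 arrays of R were below background, so neither this size nor the response of 1.02 in R is a measured level, and no difference in direction between the lines is drawn from them.

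Cyp51, an enzyme of cholesterol synthesis, had opposite signs without overlap of its arrays in both lines, -0.83 in the wild-type line and 0.17 in the PKBalpha knockout. Its knockout values were 2780, 2955 and 2607 at 4 h, against 2411, 2400 and 2582 in untreated cells. The test of the difference between these responses did not pass (limma, adjusted p = 0.245).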

How the results depend on the processing

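Counts of called genes for 4 h against untreated are given over all genes, genes above background and list members, where the reported values were 592, 534 and 81. They were 0, 0 and 0 with the compared arrays alone (2081, 1452 and 185 at an unadjusted p under 0.05), 884, 818 and 134 with an intensity trend, and 907, 824 and 116 with array weights. They were 345, 303 and 57 with equal array medians, 1016, 973 and 147 with an offset of 50, and 278, 250 and 36 with the mean of probe sets. They were 1030, 1030 and 153 with genes above background tested, 366, 325 and 53 without the 5 arrays, and ran over 190 to 481, 164 to 430 and 34 to 64 without single replicates. Of the 534 genes, 511 were called again with the block, 522 with the trend, 494 with weights, 500 with quantile normalization, 240 with equal medians, 531 with the offset, 203 with the mean of probe sets and 207 without the 5 arrays.

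The replicate block gave 671, 616 and 93 calls. Same-numbered arrays correlated at -0.31, -0.125 and -0.302. No positive correlation was seen, which does not exclude a pairing of the arrays, and the fit without the block was kept.

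The difference of responses called 2 genes against the knockout. It called 1 with the replicate block, 1 with the compared arrays alone, 0 with the trend and 0 with genes above background tested (1010 and 610 at an unadjusted p under 0.05 in limma), 25 with weights, 4 with quantile normalization, 19 without the 5 arrays and 1 to 8 without single replicates. Against R it called 3, with 6 for the compared arrays alone, 17 with weights, 8 with equal medians, 12 with the offset, 1 with the mean of probe sets, 9 without the 5 arrays and 1 to 6 without single replicates. For 24 h against 4 h the 473 calls became 1 with the compared arrays alone, 1281 with weights, 877 with the offset, 194 with the mean of probe sets, 785 with genes above background tested, and 101 to 628 without single replicates.

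Among called genes signs turned for Rnf168 (-0.0342) and Cdc42ep5 (0.2261), with the mean of probe sets. Among named genes that were not called, the differences of opposite sign were, with the mean of probe sets, -0.1895 for Spred2, -0.5946 for Axl, -0.1129 for Zyx, -0.0202 for Farsa, 0.0812 for Rps4x, -0.0859 for Per2, 0.1278 for H2-K1, -0.0623 for Rbl1, -0.1471 for Cdk2, 0.0487 for Colec11, -0.0165 for Cenpf and 0.017 for Peg3. With equal medians they were 0.0679 for Rps4x, 0.0636 for Rps19, 0.0858 for Akt2 and 0.1126 for Peg3, and without the 5 arrays -0.0212 for Spred2, -0.1063 for Ptger2 and 0.0898 for Peg3. Over all alternatives and named genes, 23 fits (of 17 genes) changed sign, 625 lost the call and 212 gained it. Without single replicates Peg3 ran from -0.152 to 0.0977.

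The medians of 16 lists changed sign in at least 1 alternative, 52 fits in all. The circadian clock median was 0.0205 with array weights, 0.0534 with equal medians and ran from -0.1576 to 0.0079 without single replicates, the highest without replicate 2 of untreated cells. Glycolysis was 0.0112 with equal medians, zinc finger factors -0.0302 and prostaglandin synthesis -0.1063 without the 5 arrays. The cause of these changes was not tested, apart from the fewer genes or arrays that some settings hold by construction.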

Other observations

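Genes above background were also ordered by the length of their genomic span, in 10 groups of 1093 or 1094 genes. Of all genes above background 2.26% were called higher and 2.61% lower at 4 h against untreated. The shortest group, with a median span of 2.94 kb, had 8 genes called higher and 41 lower. A middle group with a median span of 15.0 kb had 39 higher and 28 lower. The longest group, with a median span of 189 kb, had 10 higher and 18 lower, and a median difference of -0.12 at 4 h, against -0.06 in the shortest group. At 4 h the longest group had medians of -0.10 in the knockout and -0.12 in R, and at 24 h it had -0.0095 in the wild-type line. No test was made of these values.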
